A study of Mus musculus with 6 samples.

Results

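Cap-dependent translation begins when the factor eIF4E binds the cap at the start of a messenger RNA. With the scaffold eIF4G and the RNA helicase eIF4A it forms the complex eIF4F, which brings the ribosome to the message. The 4E-binding proteins compete with eIF4G for eIF4E and hold it inactive until the kinase complex mTORC1 phosphorylates them. These genes are described here in 4T1ch9 cells, cloned from the 4T1 line of mouse mammary carcinoma, after a lentiviral short hairpin RNA (shRNA) against Stc1, the gene of the secreted glycoprotein stanniocalcin 1. The members were 10 genes, taken by symbol: Eif4ebp1 and Eif4ebp2 for the 4E-binding proteins, Eif4e and Eif4e2 for the cap-binding proteins, Eif4g1, Eif4g2 and Eif4g3 for the scaffolds, Eif4a1 and Eif4a2 for the helicases, and Eif4b for a helicase cofactor. Of these, 9 genes had 18 probes among the 45281 probes of the array, and no probe used here was annotated to Eif4g1.

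All cells were of Balb/c origin and were kept in puromycin for 5 to 6 days after transduction. The groups were STC1 shRNA virus at 6 µl (2 arrays), STC1 shRNA virus at 18 µl (2 arrays) and non-targeting shRNA virus (2 arrays, replicate 1 given 6 µl and replicate 2 given 18 µl). Total RNA was read on Illumina bead arrays. The STC1 virus was compared with the non-targeting virus only, so lower Stc1 and any other effect of that virus cannot be told apart. Whether the arrays within a group stand for separate cultures is not given in the sources used here, so a p-value covers the spread between samples that may be technical repeats. With 6 arrays the precision is limited.

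Signals are normalised log2 intensities, on which a difference of 1 is a doubling, and each was compared only with the same probe on other arrays. Mean raw intensity lay between 253.6 and 310.6 on the STC1 arrays and was 228.3 and 253.1 on the non-targeting arrays. Between 16252 and 17507 probes an array were above background. Stc1, the target of the hairpin, was at 7.68 and 7.87 with STC1 virus at 6 µl and at 8.05 and 7.74 at 18 µl, against 9.05 and 9.32 with non-targeting virus. A second Stc1 probe (ILMN_2942344) was above background on none of the 6 arrays and gives no level. Of 6 epithelial markers the keratin genes Krt8 and Krt18 were above background on all 6 arrays, Cdh1 on 4 and Cldn7 on 2, while Epcam and Krt19 were above it on none. Of the markers of other cell types with a probe, Pdgfra of fibroblasts was above background on all 6 arrays, Kdr of endothelium on 4 and Cd3e of leukocytes on 2. The others were above it on none, among them Ptprc of leukocytes, Pecam1 and Cdh5 of endothelium and Col1a1 of fibroblasts.

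A probe entered the comparison where its detection p-value, its rank against negative control probes, was under 0.05 on at least 2 arrays, whichever group they belonged to. This held for 15 of the 18 member probes, from 7 genes, and each of the 15 was above background on all 6 arrays. Just outside the rule stood the only Eif4e probe (ILMN_1260038) and 1 of 4 Eif4a2 probes (ILMN_2696566), each above background on 1 array. Eif4e, the cap-binding protein itself, had a detection p of 0.0246 on STC1 6 µl replicate 1 and between 0.126 and 0.793 on the other arrays, so it has no measured level here. The Eif4a2 probe had a detection p of 0.047 on STC1 18 µl replicate 1. The only Eif4g3 probe (ILMN_2574618) was above background on none, with detection p between 0.453 and 0.706. Nearest to the rule on its inner side was Eif4b probe ILMN_2753323, whose highest detection p was 0.031.

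**Figure D1:**
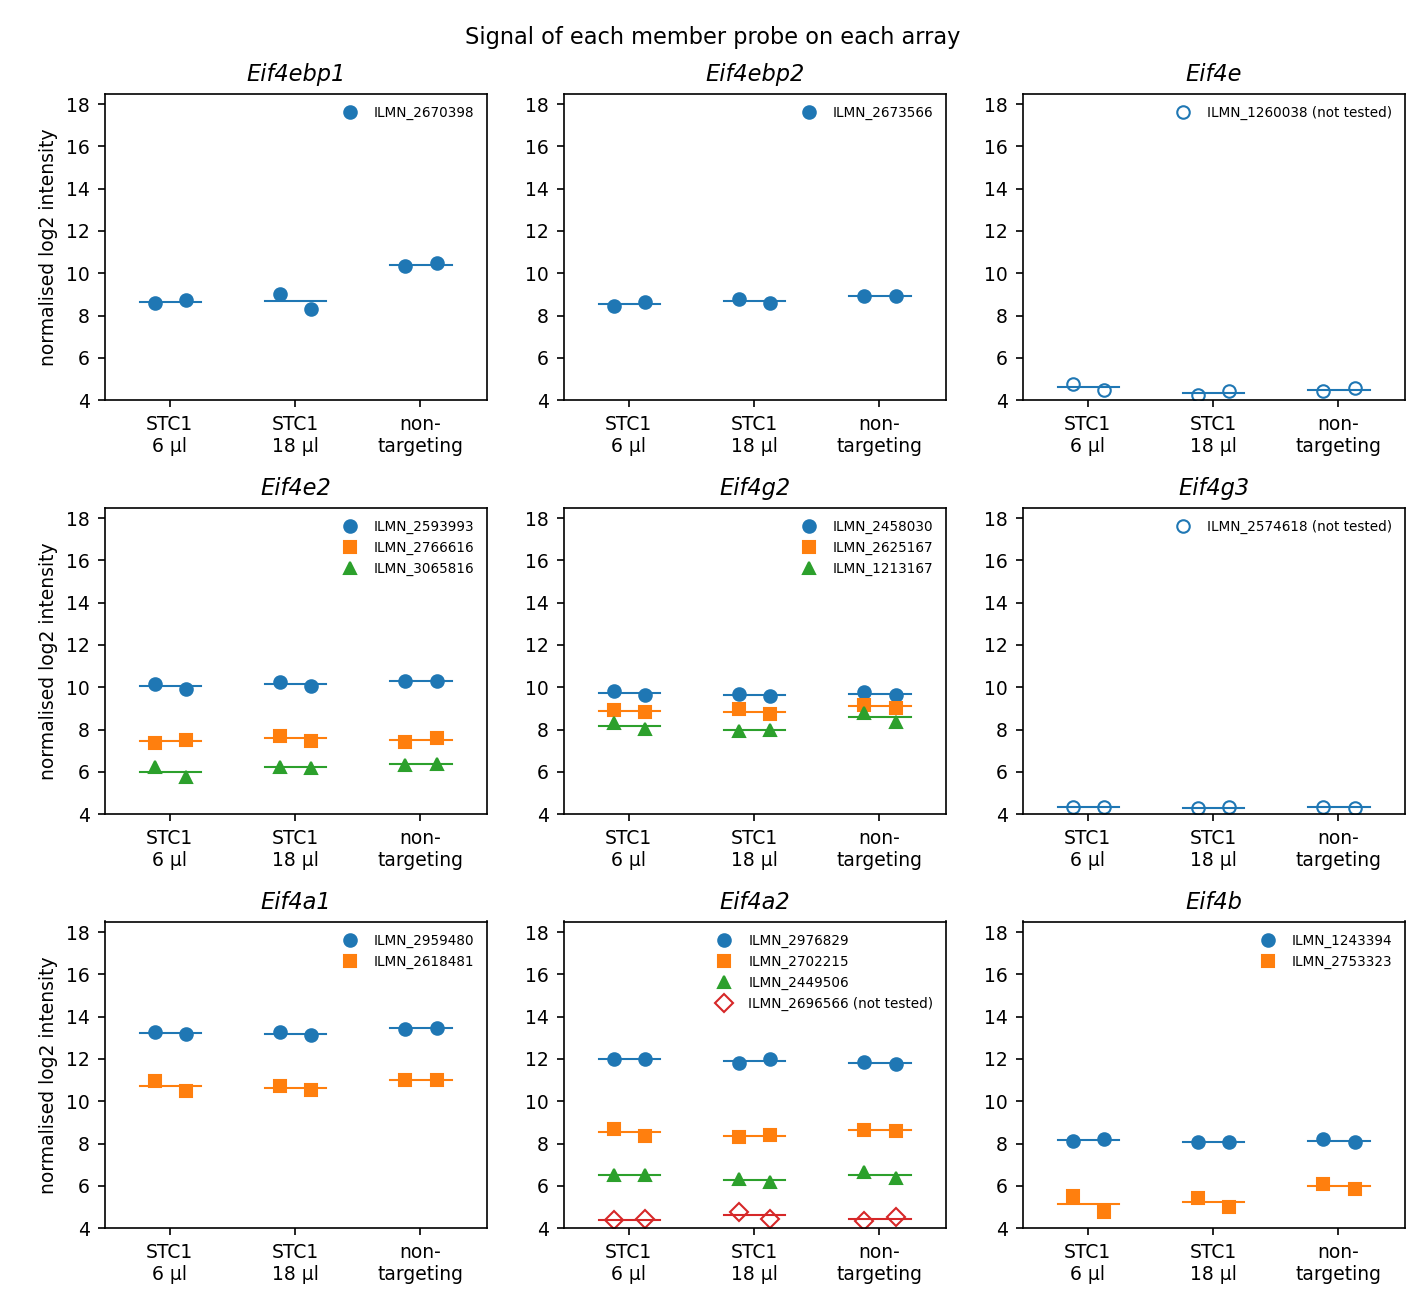
Normalised log2 intensity (vertical axis) of each of the 18 member probes on each of the 6 arrays, by gene. Points are arrays, ordered by replicate within STC1 virus at 6 µl, STC1 virus at 18 µl and non-targeting virus. Short lines are group means, and open symbols mark the 3 probes that were not tested. Eif4ebp1 lies between 8.31 and 9.04 on the STC1 arrays and at 10.34 and 10.48 on the non-targeting arrays, a wider gap than for any other probe drawn.

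Eif4ebp1, which encodes the repressor 4E-BP1, was the member with the lowest signal under STC1 virus relative to non-targeting virus. Its probe (ILMN_2670398) read 8.61 and 8.71 with STC1 virus at 6 µl and 9.04 and 8.31 at 18 µl, against 10.34 and 10.48 with non-targeting virus. Every STC1 array lay at least 1 log2 unit below both non-targeting arrays. The raw intensities, before any normalisation, were 516, 474, 534 and 343 on the STC1 arrays, against 1117 and 1398 on the non-targeting arrays. The STC1 mean was 8.67 ± 0.30 (SD, n = 4) and the non-targeting mean 10.41 ± 0.10 (SD, n = 2), a log2 difference of -1.74 (SE 0.19, 95% interval -2.17 to -1.31), or 3.35-fold lower. Ordered by size, this was number 7 among the probes that were lower. The family was selected on this fold change, seen in earlier results of these data. The difference is therefore a description, and no p-value is given for it. Its interval takes no account of that selection and is no test. In RNA from many cells, fewer cells with the transcript and less of it in each cell cannot be told apart.

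The low level of Eif4ebp1 was seen at both virus volumes. Set against the non-targeting array of the same volume, the STC1 mean differed by -1.68 at 6 µl and by -1.81 at 18 µl. Each of these volumes had a single non-targeting array. The gene was selected on these same arrays, where every STC1 array lay below both non-targeting arrays. The direction at each volume was therefore fixed beforehand, and the values describe size only. The direct comparison of STC1 at 18 µl with STC1 at 6 µl, which had no part in choosing the gene, gave a log2 difference of 0.01 (SE 0.22, 95% interval -0.49 to 0.51, limma adjusted p = 0.994). The interval leaves room for a difference of up to 0.51 between volumes. The STC1 arrays differed most among themselves at 18 µl, where replicate 1 was the highest and replicate 2 the lowest of the 4.

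Eif4ebp2, the paralogous 4E-binding protein 4E-BP2, stood nearer to its level with non-targeting virus. Its probe (ILMN_2673566) read 8.47 and 8.66 with STC1 virus at 6 µl and 8.77 and 8.60 at 18 µl, against 8.93 and 8.94 with non-targeting virus. The 4 STC1 arrays lay below both non-targeting arrays, but the log2 difference of -0.31 (SE 0.12, 95% interval -0.58 to -0.04) did not pass (limma adjusted p = 0.139). Its raw intensities overlapped, at 470, 458, 449 and 417 on the STC1 arrays against 448 and 502 on the non-targeting arrays. With median scaling the difference was -0.12 (limma adjusted p = 0.670), or -0.27 relative to the median of all tested probes. The difference of Eif4ebp1 minus that of Eif4ebp2, each between the groups for its own probe, was -1.43 on the log2 scale, and -1.58 to -1.29 under all alternative processings tried. Eif4ebp1 was selected for its low level on these same arrays and Eif4ebp2 was not. A gap in this direction was therefore built in, and these values describe its size and are no test.

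None of the 14 tested probes of the other 6 genes passed the threshold of an adjusted p under 0.05 in limma's test of STC1 against non-targeting virus, where 7.78% of all 18076 tested probes passed. At an unadjusted p under 0.05 there were 4 of the 14, against 26% of all tested probes. None of the 14 passed in the comparison of either volume alone with non-targeting virus, where 3.82% passed at 6 µl and 3.97% at 18 µl. Both comparisons share the non-targeting arrays.

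**Figure D2:**
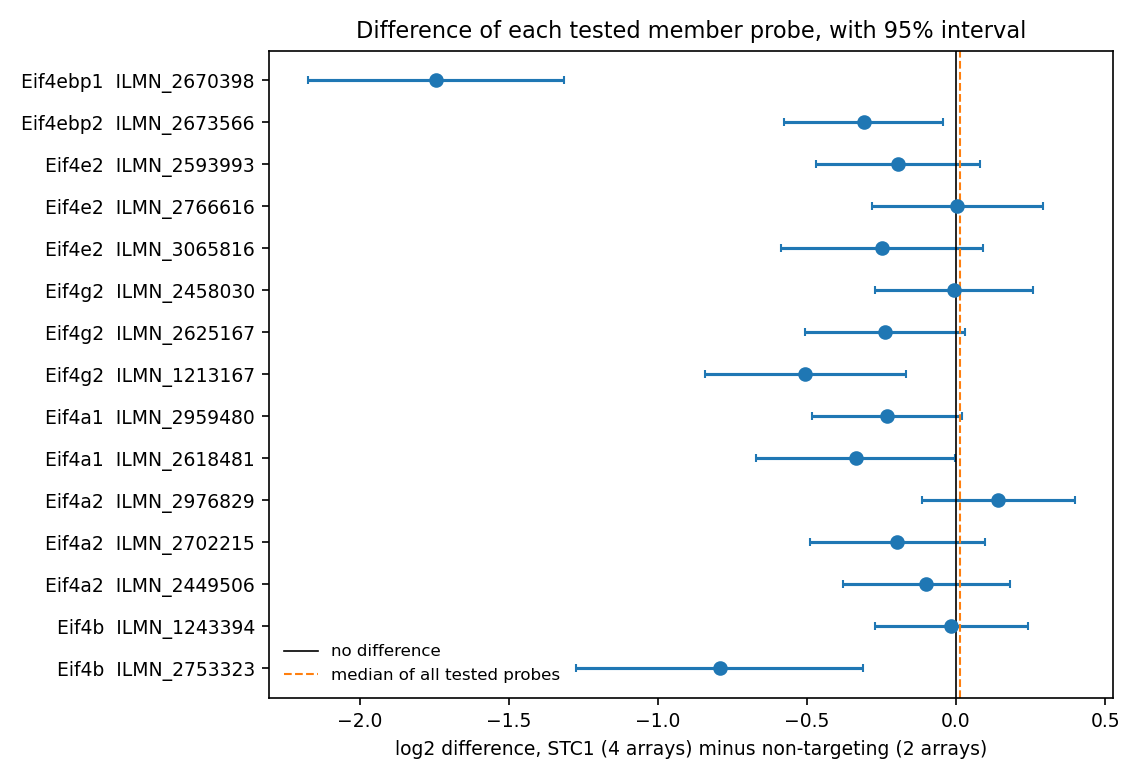
Log2 difference of STC1 virus (4 arrays) minus non-targeting virus (2 arrays) on the horizontal axis for each of the 15 tested member probes. Bars are 95% intervals from the limma fit, the solid line marks no difference and the dashed line the median of all tested probes, 0.01. Eif4ebp1 at -1.74 stands apart, with an interval that takes no account of its selection. The other 14 points lie between -0.79 and 0.14.

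Small shifts of the other members were mostly downward. Their log2 differences ranged from -0.79 to 0.14 with a median of -0.21, against a median of 0.01 over all tested probes. Of the 14, 12 were below 0, against 48% of all tested probes. In 8 of the 14 (57.1%) all 4 STC1 arrays lay below both non-targeting arrays, against 16.5% of all tested probes, and in none did all 4 lie above both, against 18.9%. The 8 came from 5 of the 6 genes, and probes of 1 gene read the same transcripts, so they are not separate cases. With 1 probe for each gene it was 3 of 6 genes, against 16% of all 9754 named genes tested. These shares describe the members and carry no test. When arrays were scaled by their medians and not quantile-normalised, which moved the median of all tested probes to 0.15, 8 of the 14 were below 0 and their median was -0.03, or -0.18 relative to that shift.

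Among the cap-binding proteins, Eif4e2 was measured by 3 probes. Eif4e2 encodes 4EHP, which binds the cap without binding eIF4G and is known as a translational repressor. Its brightest probe (ILMN_2593993) read 10.18 and 9.94 with STC1 virus at 6 µl and 10.24 and 10.07 at 18 µl. With non-targeting virus it read 10.29 and 10.31, a difference of -0.20 (SE 0.12, limma adjusted p = 0.347). With median scaling this difference was 0.025, or -0.12 relative to the median of all tested probes. The second (ILMN_2766616) read 7.38, 7.50, 7.70 and 7.47 on the STC1 arrays, against 7.40 and 7.62, and its groups overlapped with a difference of 0.00 (SE 0.13, limma adjusted p = 0.988). The third (ILMN_3065816), annotated to another transcript of the gene, read 6.25, 5.74, 6.25 and 6.19 on the STC1 arrays, against 6.33 and 6.38 on the non-targeting arrays (-0.25, SE 0.15, limma adjusted p = 0.333). The lowest array of the third probe was STC1 6 µl replicate 2, which was also the lowest for the first.

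The scaffold gene Eif4g2 gave a different picture with each of its 3 probes. Eif4g2 encodes DAP5, a relative of eIF4G that lacks the part that binds eIF4E. The brightest probe (ILMN_2458030) read 9.83 and 9.65 with STC1 virus at 6 µl and 9.67 and 9.58 at 18 µl, against 9.77 and 9.62 with non-targeting virus. These groups overlapped, with a difference of -0.01 (SE 0.12, limma adjusted p = 0.978). The second (ILMN_2625167) read 8.90, 8.81, 8.96 and 8.75 on the STC1 arrays, against 9.16 and 9.03 on the non-targeting arrays (-0.24, SE 0.12, limma adjusted p = 0.245). The third (ILMN_1213167) read 8.33, 8.02, 7.95 and 7.98 on the STC1 arrays, against 8.78 and 8.38 on the non-targeting arrays. Its difference of -0.51 (SE 0.15, 95% interval -0.84 to -0.17) did not pass (limma adjusted p = 0.0723). The non-targeting arrays differed from each other by nearly as much as the groups did, and the difference was -0.31 without non-targeting replicate 1 and -0.70 without replicate 2. It passed with no background correction (-0.46, limma adjusted p = 0.0199), with the authors' deposited values (-0.46, adjusted p = 0.0198) and with virus volume as a block (adjusted p = 0.0465). All 3 probes carry the same transcript annotation, so which reading stands for the gene is not settled by these files.

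The helicase gene Eif4a1 had lower values in all STC1 arrays by both of its probes, without passing the test. Eif4a1, the main eIF4A of growing cells, read 13.27 and 13.17 with STC1 virus at 6 µl and 13.26 and 13.15 at 18 µl, against 13.41 and 13.47 with non-targeting virus, by probe ILMN_2959480. Its second probe (ILMN_2618481) read 10.95, 10.50, 10.73 and 10.52 on the STC1 arrays, against 11.01 on both non-targeting arrays. For both probes every STC1 array was below both non-targeting arrays, by differences of -0.23 (SE 0.11, limma adjusted p = 0.226) and -0.34 (SE 0.15, limma adjusted p = 0.189). With median scaling these differences were -0.09 (limma adjusted p = 0.763) and -0.15 (limma adjusted p = 0.598). Relative to the median of all tested probes they were then -0.24 and -0.30.

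Eif4a2, a paralog of Eif4a1 that has been tied to repression by microRNAs, pointed both ways. Its brightest probe (ILMN_2976829) read 12.01 and 12.01 with STC1 virus at 6 µl and 11.79 and 11.98 at 18 µl, against 11.84 and 11.77 with non-targeting virus. This was the only member probe with a positive difference above 0.1 (0.14, SE 0.11, limma adjusted p = 0.467), and it was above 0 under all alternative processings. The next probe (ILMN_2702215) read 8.71, 8.36, 8.31 and 8.39 on the STC1 arrays, against 8.67 and 8.61 (-0.20, SE 0.13, limma adjusted p = 0.375). The dimmest tested one (ILMN_2449506) read 6.54, 6.53, 6.33 and 6.19 on the STC1 arrays, against 6.64 and 6.35 (-0.10, SE 0.12, limma adjusted p = 0.655). All 3 had overlapping groups. Eif4a1 and Eif4a2 are close paralogs, and whether a probe of one also reads the other was not examined, since probe sequences were not used here.

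Eif4b, the cofactor that stimulates eIF4A, was split between a bright and a dim probe. The bright one (ILMN_1243394) read 8.13 and 8.22 with STC1 virus at 6 µl and 8.07 on both arrays at 18 µl, against 8.23 and 8.05 with non-targeting virus, and its groups overlapped (-0.02, SE 0.11, limma adjusted p = 0.945). The dim one (ILMN_2753323) read 5.50, 4.76, 5.43 and 5.02 on the STC1 arrays, against 6.10 and 5.84 on the non-targeting arrays, with no overlap. Its difference of -0.79 (SE 0.21, 95% interval -1.27 to -0.31) was the largest of the 14 and just missed the threshold (limma adjusted p = 0.0557). This probe passed under 7 of the alternatives, among them without STC1 6 µl replicate 1 (-0.98, limma adjusted p = 0.0339), and its size was -0.45 with no background correction and with the authors' deposited values. With detection p-values up to 0.031 it lay near background, and both Eif4b probes carry the same transcript annotation.

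**Figure D3:**
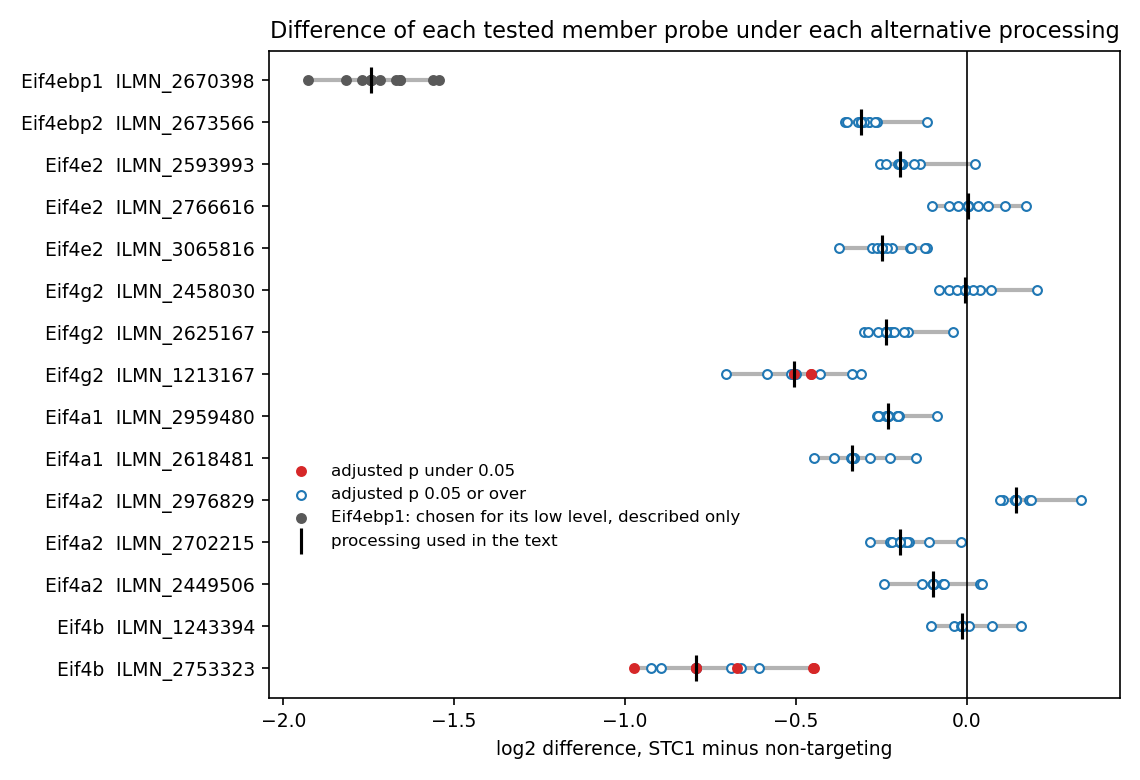
Log2 difference of STC1 minus non-targeting virus (horizontal axis) for each tested member probe under each alternative processing. Points are alternatives, filled where the limma adjusted p was under 0.05, and black ticks mark the processing used in the text. Points of Eif4ebp1 are grey because it was chosen for its low level, and run from -1.93 to -1.54. Of the other probes only Eif4g2 ILMN_1213167 and Eif4b ILMN_2753323 pass under any alternative.

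Between the STC1 groups of both virus volumes no member differed detectably. For STC1 at 18 µl minus STC1 at 6 µl, the log2 differences of the 15 probes ranged from -0.27 to 0.22 with SEs of 0.13 to 0.24, and none passed in limma's test (smallest unadjusted p = 0.0879, for Eif4a2 ILMN_2449506). Over all tested probes 0% passed and 6.8% had an unadjusted p under 0.05. With median scaling 0.669% of all tested probes passed, 4.13% of them higher at 18 µl, and the median of all tested probes was -0.16. None of the 15 member probes passed there. The STC1 effect at 18 µl minus that at 6 µl, each taken against the non-targeting array of its volume, ranged from -0.13 to 0.36 and passed for no member (smallest unadjusted p = 0.422). Of all tested probes 0% passed and 4.28% had an unadjusted p under 0.05. Each non-targeting volume was a single array, assumed to vary like the STC1 arrays, so this last comparison does not measure the spread of its controls.

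Other genes that act on eIF4E and eIF4F did not share one direction. Of a list of 19 partners and regulators, 15 genes had a tested probe, of which 2 rose, none fell and 13 did not pass, where 8.17% of all 9754 genes passed, 4.45% higher and 3.72% lower. The median log2 difference of the list was 0.05, against 0.03 over all genes, and with median scaling it was 0.17, or 0.02 beyond the median of all probes. Pdcd4, an inhibitor of the helicase eIF4A, rose 1.67-fold (log2 difference 0.74, SE 0.19, limma adjusted p = 0.0485), with 9.33 to 10.07 on the STC1 arrays against 9.07 and 9.09 on the non-targeting arrays. Its 3 further probes were at 0.78, 0.43 and 0.41 and did not pass. Paip2b, an inhibitor of the poly(A)-binding protein, rose 1.54-fold (0.63, SE 0.11, limma adjusted p = 0.017), with 10.47 to 10.55 on the STC1 arrays against 9.79 and 9.98. Its second probe was at -0.06. Pabpc1, the cytoplasmic poly(A)-binding protein, which joins the cap complex through eIF4G, did not pass by its brightest probe (-0.19, SE 0.12), while 2 dimmer probes fell by 0.70 and 0.51 (limma adjusted p = 0.048 and 0.039). Neither rise passed with 1 non-targeting array or 1 STC1 6 µl array left out, where fewer of all tested probes passed as well.

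The mTORC1 pathway, which releases eIF4E from its binding proteins, held rises in 3 genes. Of 32 listed genes 26 were tested, 3 rose, none fell and 23 did not pass. Over all genes tested 4.45% rose and 3.72% fell. The median of the list was 0.03, or with median scaling 0.21, which was 0.06 beyond the median of all probes. Castor1, an arginine sensor that restrains mTORC1, rose 1.83-fold (0.87, SE 0.13, limma adjusted p = 0.00875), with 7.01 to 7.35 on the STC1 arrays against 6.35 and 6.29. Eef2k, a kinase that slows elongation and is itself held down by mTORC1, rose 1.71-fold (0.78, SE 0.12, limma adjusted p = 0.0111), with 5.62 to 6.10 against 4.99 and 5.06. Sesn3, a stress-induced inhibitor of mTORC1, rose 1.53-fold (0.61, SE 0.14, limma adjusted p = 0.0341), with 6.45 to 6.84 against 6.12 and 5.97. Lamtor2, part of the lysosomal anchor of the pathway, did not pass by its brightest probe (0.44, limma adjusted p = 0.0671), while another probe rose by 0.57 (limma adjusted p = 0.0238). None of the 3 genes passed without non-targeting replicate 1 or replicate 2, which leaves 1 control array. Without STC1 6 µl replicate 2, Eef2k and Sesn3 did not pass. Sesn3 also missed the threshold without STC1 6 µl replicate 1 or STC1 18 µl replicate 2. With any of these arrays left out, fewer of all tested probes passed as well. The difference of Eef2k was 0.43 with no background correction, and a second Eef2k probe was at 0.42 and did not pass.

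Of 33 other initiation factors, 27 were tested, none rose, 1 fell and 26 did not pass, where 4.45% of all genes rose and 3.72% fell. The median of the list was -0.07. With median scaling it was 0.10, or -0.05 once the median of all probes was subtracted. The gene that fell was Eif2b2, a subunit of the exchange factor that recharges eIF2. It was 1.45-fold lower (-0.53, SE 0.11, limma adjusted p = 0.0265), with 7.88 to 8.10 on the STC1 arrays against 8.60 and 8.44. It did not pass with median scaling (-0.35, limma adjusted p = 0.143). Eif2b2 also missed the threshold without any 1 of the non-targeting, STC1 6 µl or STC1 18 µl replicate 2 arrays. With any of these arrays left out, fewer of all tested probes passed as well. The members other than Eif4ebp1, by 1 probe each, had a median of -0.11.

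**Figure D4:**
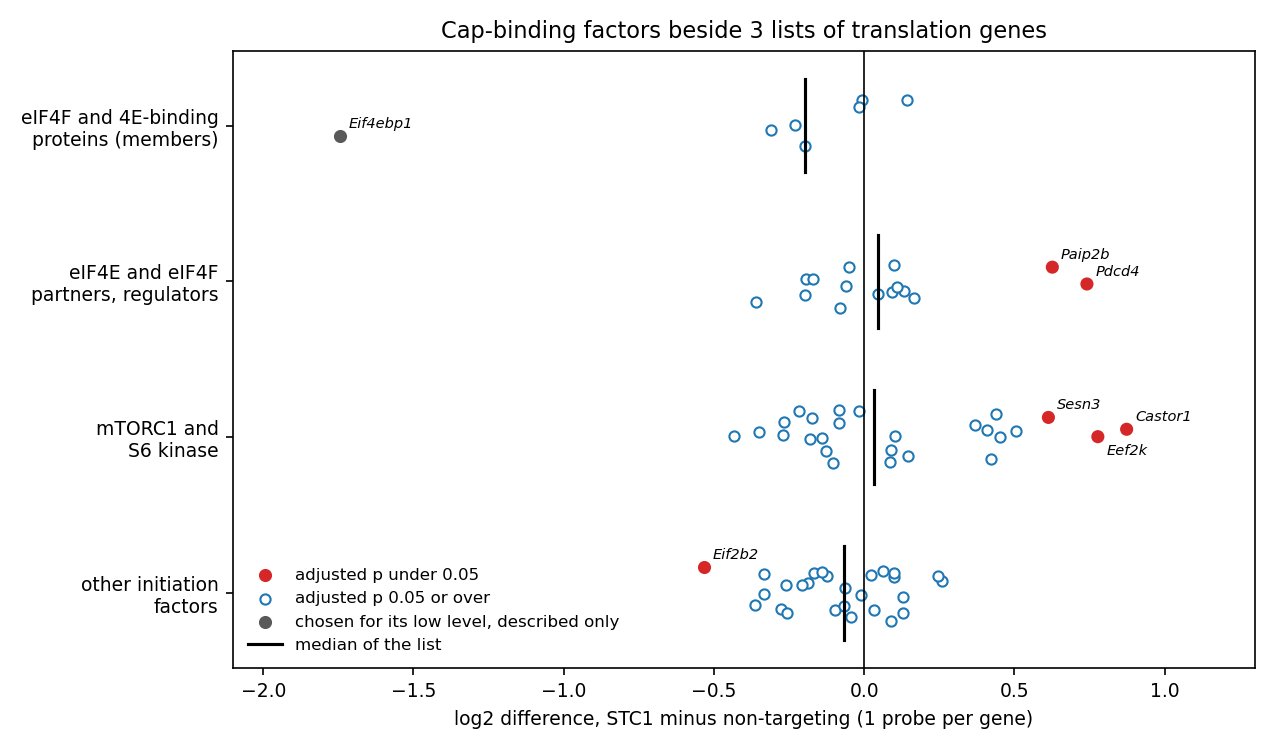
Log2 difference of STC1 minus non-targeting virus (horizontal axis) for the members and 3 lists of translation genes, with 1 probe for each gene. Each point is a gene, red where its limma adjusted p was under 0.05, vertical position within a list has no meaning, and black lines are list medians, that of the members with Eif4ebp1 included. Eif4ebp1, in grey, lies at -1.74, Castor1 is the highest at 0.87, and the medians of the 3 other lists lie between -0.07 and 0.05.

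The array pattern of Eif4ebp1 was most like that of 5 genes, measured as the root mean square difference between log2 values centred on each probe's own mean over the 6 arrays. Nearest was Chac1, an enzyme that degrades glutathione, at 0.14 log2 units. Chac1 read 8.35 and 8.44 with STC1 virus at 6 µl and 9.01 and 8.08 at 18 µl, against 10.05 and 9.96 with non-targeting virus. The order of the 4 STC1 arrays was that of Eif4ebp1, with replicate 1 at 18 µl the highest and replicate 2 the lowest. Next were Sri, the calcium-binding protein sorcin (0.16), Polr3k, a subunit of RNA polymerase III (0.16), Mycbp, a MYC-binding protein (0.17), and Bloc1s1, a subunit of complexes of lysosome-related organelles (0.20). In these 4 the STC1 arrays lay closer together than for Eif4ebp1, and a further Mycbp probe was at 0.17 on the log2 difference. All 5 were lower in the same comparison, by 1.53 to 1.77 on the log2 scale, which the measure of likeness takes in.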

How the data were processed

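Per the file headers, the deposited raw table gives every probe a linear, non-normalised intensity and a detection p-value on each array. The normalisation behind the log2 values of the second deposited table is not stated in the labels. Each of its columns differed from quantile-normalised log2 raw intensities by a median of at most 0.00154. The scanner software was not given in the sources used here.

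Intensities were background-corrected, quantile-normalised and log2-transformed with neqc of limma 3.58.1 (offset 16) in R 4.3.3. Quantile normalisation removes a change shared by most transcripts, and the offset understates folds of dim probes. Probes were named by the platform annotation, with symbols brought up to date from a GRCm38.p6 gene table (34807 gene identifiers matched). Of 45281 probes 18076 were tested, with lmFit and eBayes on 1 mean for each of 3 groups (3 residual and 5.66 prior degrees of freedom), two-sided, with Benjamini-Hochberg adjustment over all tested probes. Changed means an adjusted p under 0.05. A gene of a list stands by its brightest tested probe. All list genes with a passing probe were named. The procedure was tested on simulated data. The members, lists and rules were chosen with earlier results of these data known.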

Additional observations from a re-analysis of the deposited data

How the results depend on the processing

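The log2 difference of Eif4ebp1 was -1.54 with median scaling and between -1.93 and -1.56 with 1 array left out. Eif4ebp1 was selected for its low level on these arrays, where every STC1 value lay below both non-targeting values. Leaving out 1 array therefore could not change its sign, and these values describe size only. Of the other 14 member probes 0 passed the threshold for STC1 against non-targeting virus. The count was 2 with no background correction, where 12.6% of all tested probes passed, or the authors' values (12.7%). It was 1 with median scaling (14% of all tested probes) or detection on all 6 arrays (12.1%). With the replicate block (7.16%), virus volume as a block (7.96%) or 2 groups only (8.01%) it was also 1. The probes that passed were Eif4g2 ILMN_1213167 and Eif4b ILMN_2753323. At 6 µl and at 18 µl the count was 0. It was 1 with no background correction, the authors' values, median scaling or the replicate block. In that order 8.66%, 8.68%, 16.5% and 3.4% of all tested probes passed at 6 µl, and 7.98%, 8%, 5.37% and 3.36% at 18 µl. Between the STC1 groups, deviations from group means correlated at 0.00 for the same replicate numbers, which showed no pairing there. In the non-targeting group the numbers also stand for virus volume. Its correlations with the STC1 groups (-0.02 and -0.11) therefore cannot tell pairing from volume. With the numbers of the non-targeting arrays exchanged, a choice made after seeing the data, the count was 0.

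Some probes changed sign, none past the threshold. Most of them were near 0 in the main processing, but Eif4e2 ILMN_2593993 was at -0.20. With median scaling Eif4a2 ILMN_2449506 was at 0.038, Eif4b ILMN_1243394 at 0.16, Eif4e2 ILMN_2593993 at 0.025 and Eif4g2 ILMN_2458030 at 0.21. With 1 array left out, Eif4a2 ILMN_2449506 ran from -0.24 to 0.044, Eif4b ILMN_1243394 from -0.10 to 0.072, Eif4e2 ILMN_2766616 from -0.10 to 0.11 and Eif4g2 ILMN_2458030 from -0.082 to 0.069, both ends of each range coming without 1 of the non-targeting arrays. The count over all tested probes was 1407, or 2277 with no background correction, 2288 with the authors' values, 2528 with median scaling (80.8% of them higher, against 48.9%), 787 with no filter on detection, and 207 to 1479 with 1 array left out. In the mTORC1 list 3 genes rose, or 8 with no background correction or the authors' values, 9 with median scaling, 7 with detection on all 6 arrays, 2 with no filter on detection, 4 with 2 groups only, and 0 to 6 with 1 array left out. Among the partners 2 rose, or 1 with no filter on detection or with virus volume as a block, and 0 to 2 with 1 array left out. Among the other initiation factors 1 fell, or 0 to 1 with 1 array left out, and with median scaling none fell and 1 rose. The cause of these changes was not tested.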
